A study of Homo sapiens with 5 samples.

Results

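The comparison described here set 1 array of MonoMac6 cells cultured with lipoxin A4 against 1 array of unstimulated MonoMac6 cells, 2 of the 5 arrays of the series. The arrays were chosen by their titles. The other 3 arrays, of cells given leukotriene B4, leukotriene C4 or lipoxin B4, served as a yardstick for what differed on the lipoxin A4 array only. Each compound had been added from a stock in DMSO to 100 nM for 12 h, and the sources used here do not say whether DMSO alone was added to the unstimulated culture. MonoMac6 is an established human monocytic line derived from a leukaemia, so the values hold for 1 line and 1 culture per condition.

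Lipoxin A4 is a trihydroxy fatty acid made from arachidonic acid by lipoxygenases acting one after another, often in different cells that meet at a site of inflammation. It is known as a mediator of resolution that limits neutrophil entry and promotes the uptake of dying cells by macrophages. It acts through the receptor FPR2, has also been described as a ligand of the aryl hydrocarbon receptor AHR, and is cleared by oxidation of a hydroxyl group by 15-hydroxyprostaglandin dehydrogenase (HPGD).

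The files give 1 signal for each of 54675 probe sets per array, a probe set being a group of oligonucleotides for 1 transcript. A gene was called measured when a probe set with 1 gene symbol lay above a floor of 48.7 signal units on at least 1 array, which held for 15374 genes. Each gene is given by its brightest such probe set. Of these genes, 9086 had a mean signal of at least 200 and are called bright below. There were no replicates, so no difference has an error of its own, no test was run, and differences are between arrays. As a scale, the SD over genes of the log2 difference between lipoxin A4 and unstimulated cells was 0.33 at signals of 200 to 500, 0.21 from 500 to 2000 and 0.15 above. Between pairs of stimulated arrays it was 0.29 to 0.33, 0.19 to 0.22 and 0.13 to 0.19 in these ranges. Between 100 and 200 the values were 0.51 and 0.47 to 0.54. In RNA from a whole culture, fewer cells expressing a gene and less RNA per cell cannot be told apart.

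The labelled cell type was borne out by the myeloid genes. Of 15 monocyte markers 12 were measured and none was 1.5-fold apart with lipoxin A4, among them LYZ (46099 with lipoxin A4, 49119 unstimulated), S100A8 (41680 and 43572) and CD14 (225 on both). Over all measured genes 10.1% were 1.5-fold apart, and over bright genes 2.04%. Markers of T cells, B cells, erythroid cells or megakaryocytes, and epithelium or liver had no signal above 189 on any array. Brighter markers of other types were PECAM1, an adhesion molecule that myeloid cells also carry (4857 with lipoxin A4), the myelin gene MBP (1573), SNAP25 (272) and COL1A1 (218). Of these lists, CD3E and PDGFRB were 1.5-fold higher, and CD79B and PF4 lower, all under a signal of 100 with lipoxin A4. RNA integrity was alike, with a ratio of 3' to 5' signal for GAPDH of 1.02 with lipoxin A4 and 1.03 unstimulated. The middle 18S rRNA control probe set had 365 and 186, and its part in the results was not tested.

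Lipoxin A4 left bright genes close to their unstimulated signals. At least 1.5-fold apart were 185 of 9086 bright genes (2.04%), 84 higher (0.924%) and 101 lower (1.11%). By the same count, leukotriene B4 had 280 (3.08%), leukotriene C4 314 (3.46%) and lipoxin B4 351 (3.86%), so lipoxin A4 had the fewest of the 4. At 2-fold the order was the same at the low end, with 7 bright genes higher (0.077%) and 14 lower (0.154%) for lipoxin A4, 21 in all (0.231%), against 33 (0.363%), 37 (0.407%) and 34 (0.374%). All 4 counts share the 1 unstimulated array. Pairs of stimulated arrays, which do not use it, had 145 (lipoxins A4 and B4) to 230 bright genes 1.5-fold apart, so 185 lay within the range between compounds.

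Over all 15374 measured genes lipoxin A4 also had the fewest, by a smaller margin. At least 1.5-fold apart were 1548 genes (10.1%) with lipoxin A4, 1662 (10.8%) with leukotriene B4, 1907 (12.4%) with leukotriene C4 and 1737 (11.3%) with lipoxin B4. At 2-fold, 111 genes had at least 2-fold more signal (0.722%) and 265 at least 2-fold less (1.72%), 376 in all for lipoxin A4 (2.45%). The totals were 380 (2.47%) for leukotriene B4, 446 (2.9%) for leukotriene C4 and 388 (2.52%) for lipoxin B4. Of the 376 genes with lipoxin A4, 355 (94.4%) had a mean signal under 200. The split depended on scaling: 29.5% of the 376 were higher, against 44.9% after quantile normalization (153 higher, 188 lower). For the bright genes at 1.5-fold it was 45.4% higher, and 33.8% with the values as deposited (68 higher, 133 lower). The bright genes nearest the 1.5-fold limit were PAQR3 (0.59) inside and MASTL (0.58) outside on the higher side, and ZNF160 (-0.59) and B4GALT2 (-0.58) on the lower.

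**Figure D1:**
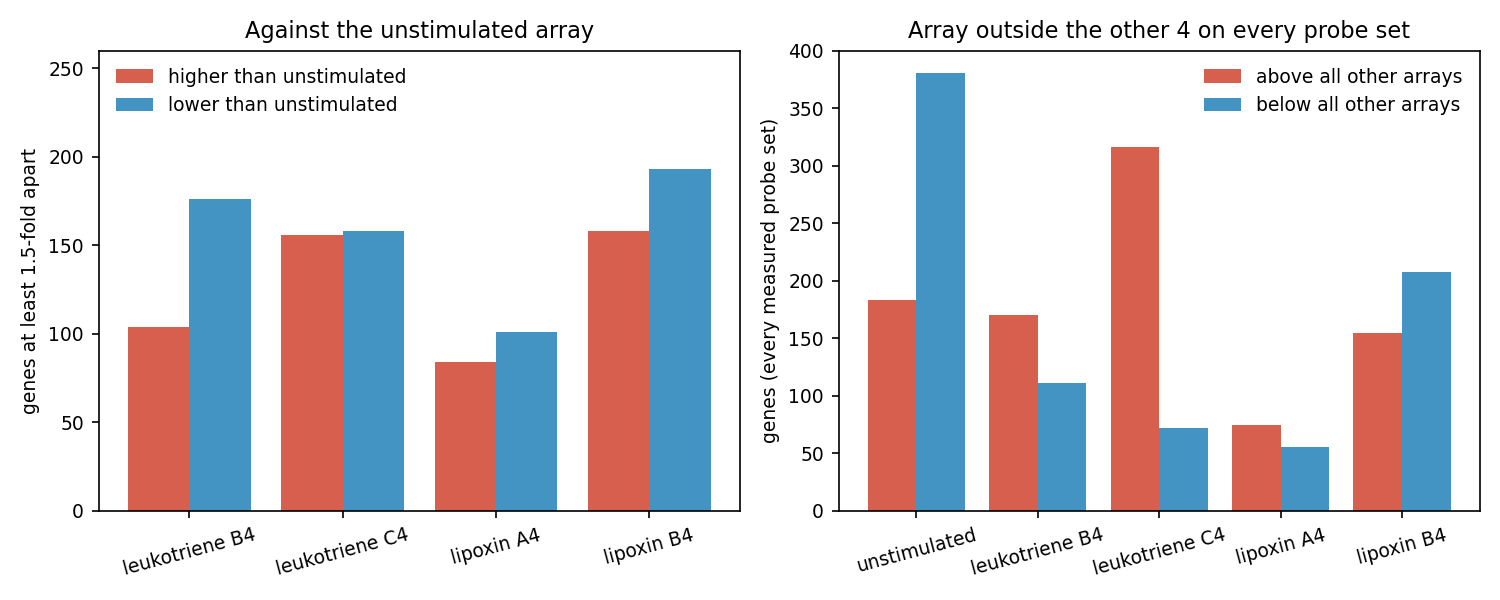
Left, bars from 0 give the number of bright genes at least 1.5-fold higher or lower than on the unstimulated array for each compound; right, bars give, for each array in turn, the bright genes with several probe sets whose every measured probe set was above or below the other 4 arrays. Lipoxin A4 has the shortest pair of bars on the left (84 and 101) and on the right (75 and 56).

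The array of lipoxin A4 seldom stood outside the other 4, and at 1.5-fold this was not particular to it. It stood outside in 11 bright genes, leukotriene B4 in 8, lipoxin B4 in 9, leukotriene C4 in 24 and unstimulated in 29. The lipoxin A4 array was at least 1.5-fold above all other arrays in 2 bright genes (0.022%) and below all of them in 9 (0.0991%). The unstimulated array stood above in 15 (0.165%) and below in 14 (0.154%), leukotriene C4 in 11 (0.121%) and 13 (0.143%), leukotriene B4 in 1 (0.011%) and 7 (0.077%), and lipoxin B4 in 4 (0.044%) and 5 (0.055%). Above all others were KLHL36 and PROM2, the probe sets of PROM2 disagreeing in sign, and below were SLC11A1, ZNF839, ADAM33, PCSK7, ARID3B, INTS9, ATP8B1, AMZ1 and ZBTB48, of which ZNF839 had a probe set of the opposite sign. When every measured probe set of a gene was asked to lie outside, with no minimum gap, 75 of 5871 bright genes with several probe sets were above (1.28%) and 56 below (0.954%). The other arrays had more on both sides. Unstimulated had 183 (3.12%) above and 381 (6.49%) below, and leukotriene B4 170 (2.9%) and 111 (1.89%). Leukotriene C4 had 316 (5.38%) and 72 (1.23%), and lipoxin B4 155 (2.64%) and 208 (3.54%). With a gap of at least 1.25-fold on every probe set 0 genes were left for lipoxin A4 in either direction (0%). Few were left for the other arrays too, above and below: unstimulated 6 (0.102%) and 2 (0.0341%), leukotriene B4 0 and 1 (0.017%), leukotriene C4 5 (0.0852%) and 2 (0.0341%), and lipoxin B4 1 (0.017%) and 10 (0.17%).

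**Figure D2:**
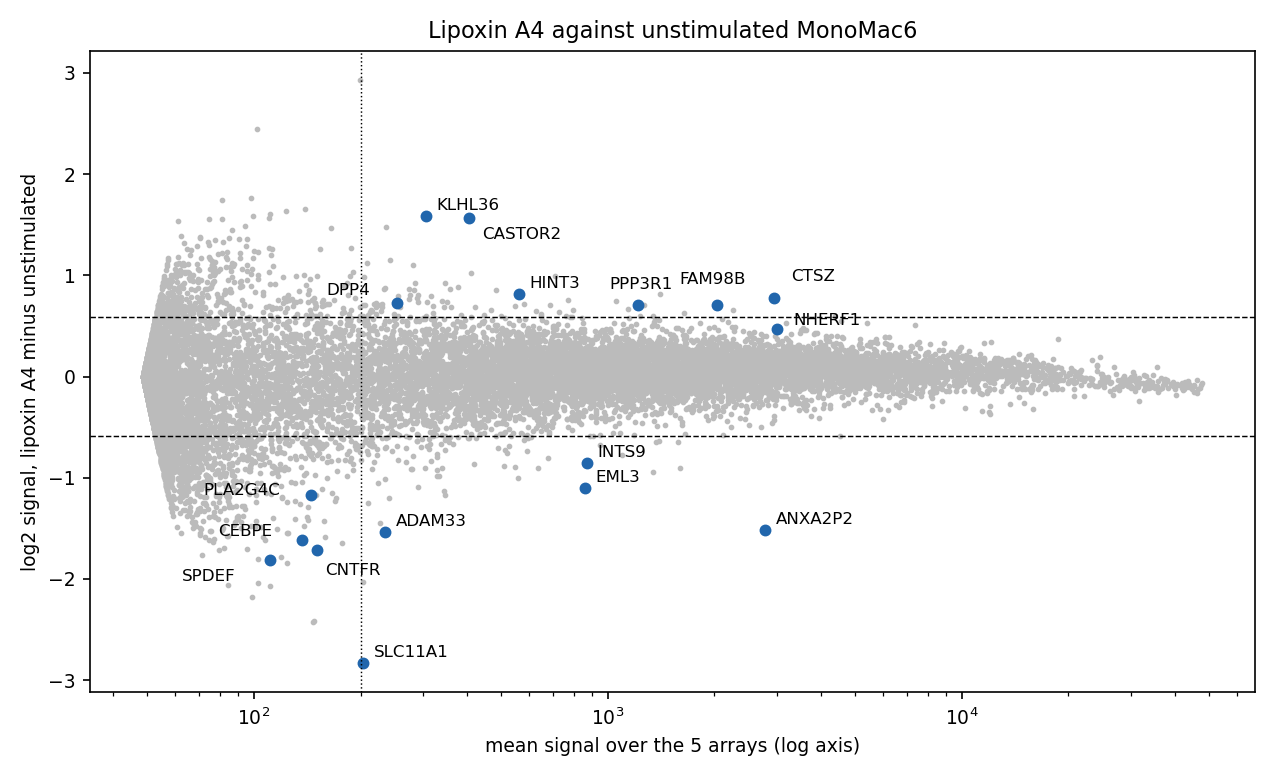
Each point is 1 of 15374 measured genes, by mean signal over the 5 arrays (log axis) and by the log2 difference of lipoxin A4 minus unstimulated; the dotted line marks a signal of 200, the dashed lines 1.5-fold, and named genes are blue. The cloud narrows with signal, and ANXA2P2 (-1.52) lies far from it among bright genes.

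Genes higher with lipoxin A4 are given first for those whose signal was highest on its array, with values in the order unstimulated, leukotriene B4, leukotriene C4, lipoxin A4 and lipoxin B4. KLHL36 (chromosome 16), of a family that brings substrates to cullin 3 ubiquitin ligases, had the largest difference upward among bright genes. Its signals were 191, 263, 328, 574 and 283, a log2 difference of 1.59. Lipoxin A4 lay 1.75-fold over leukotriene C4, the nearest array. The other probe sets gave 118, 105, 107, 136 and 104 (0.21) and 184, 209, 223, 231 and 145 (0.33), so they shared the sign and the top rank but not the size, and the mean of all 3 was 0.71. Of 27 measured genes of the KLHL and cullin 3 list, KLHL36 was at least 1.5-fold higher and KLHL17 lower (-0.79, with a second probe set at 0.21). Over all measured genes 3.29% were higher and 6.78% lower at this fold, so the count of the list was near the background.

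A second group was smaller in size but shared by every probe set. FAM98B (chromosome 15), a subunit of the tRNA ligase complex, had 1548, 2031, 2121, 2525 and 2056 on its brighter probe set (0.71). On the other it had 1025, 1074, 972, 1490 and 1188 (0.54). The lipoxin A4 array was highest on both, by at least 1.19-fold. PPP3R1 (chromosome 2), the calcium-binding regulatory subunit of calcineurin, had 965, 940, 1313, 1572 and 1425 (0.70), and on its other probe set 569, 574, 964, 1126 and 945 (0.98). Lipoxin A4 was highest on both, with lipoxin B4 and leukotriene C4 close behind and leukotriene B4 at the unstimulated level.

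HINT3 (chromosome 6), a histidine triad hydrolase of nucleotide conjugates, was higher on all 3 measured probe sets, and lipoxin B4 came near lipoxin A4 on each but the most variable. The brightest by mean log2 signal had 408, 507, 531, 717 and 695 (0.81). A dimmer one had 119, 155, 242, 304 and 296 and the third 299, 523, 218, 1236 and 921 (2.05). DPP4 (chromosome 2), the cell-surface dipeptidase CD26, had 206, 252, 255, 341 and 236 (0.72). Its other probe sets had 97.0, 104, 83.8, 121 and 97.7, and 101 with lipoxin A4 against values under the floor on the other 4 arrays. All 3 were highest with lipoxin A4.

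**Figure D3:**
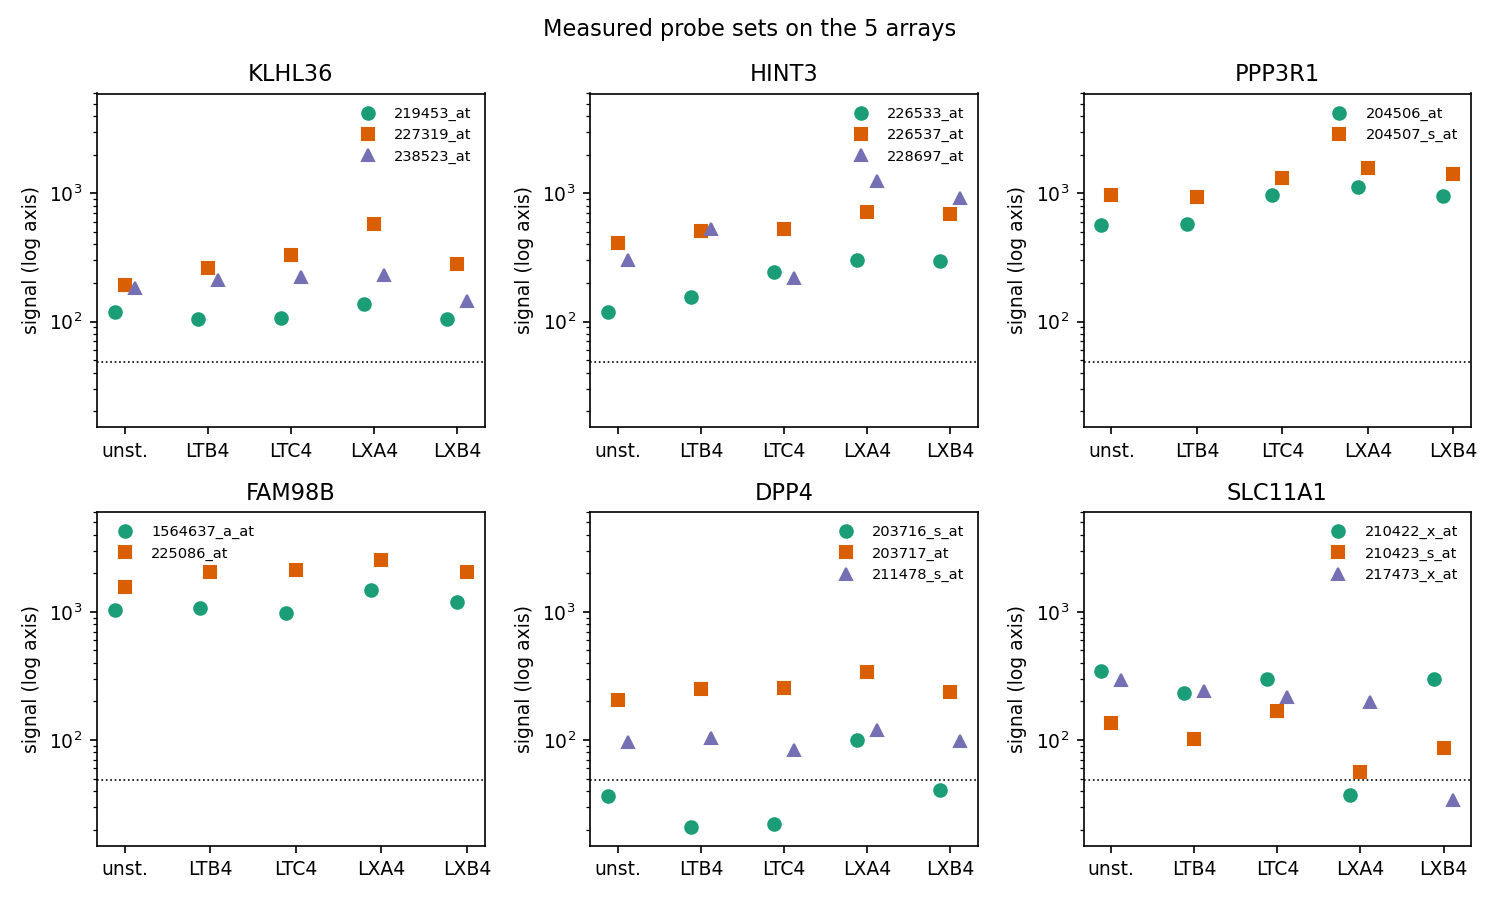
Signals (log axis) of every measured probe set of 6 genes on the 5 arrays, 1 marker per probe set, with the floor of 48.7 dotted. FAM98B, PPP3R1 and DPP4 peak with lipoxin A4 on every probe set, KLHL36 mainly on 1, and the 3 probe sets of SLC11A1 differ in which array is lowest.

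Other genes highest on the lipoxin A4 array had 1 probe set or smaller gaps. NHERF1 (chromosome 17), a scaffold that ties membrane proteins to ezrin, was the brightest of them at 2896, 2501, 2736, 4006 and 3102 (0.47), 1.29-fold over the nearest array. CD163L1 (chromosome 12), a scavenger receptor related to CD163, had 219, 281, 341, 415 and 217 (0.92). ZNF670, a zinc finger gene, had 131, 228, 209, 286 and 221 (1.12). The lipoxin A4 array was 1.22-fold and 1.26-fold over the next one for these. The sorting nexin SNX15 had 593, 561, 620 and, with the lipoxins, 826 and 616 (0.48), and SNX24 had 261 against 170 to 200.2 on the others (0.42), with another measured probe set under the floor with lipoxin A4. GATM, an enzyme of creatine synthesis, had 421 against 275 to 327 (0.44) on its brightest probe set only. On the others GATM had 269 with lipoxin A4 and 398 with lipoxin B4, and 70.8 against 82.2 with leukotriene B4. SNORD89 had 431 against 226 to 316 (0.57) and the pseudogene GK6P 345 against 221 to 267 (0.38). RHOBTB2, SPTY2D1 and TCTN2 were highest with lipoxin A4 on both of their probe sets, with differences of 0.30, 0.38 and 0.52.

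Several genes with large differences were as high with the other compounds. CASTOR2 (chromosome 7), of the family that senses arginine for mTORC1, had 169, 439, 592, 499 and 505 (1.56). The ubiquitin pseudogene UBBP2 had 103, 334, 249, 286 and 299.8 (1.48); it can share sequence with the functional ubiquitin genes, so its value is uncertain. The unstimulated array was the low one for both, and the 4 compounds overlapped. MAST3 (0.87, against 1.44 with leukotriene B4), AMZ2P1 (0.87), LRRCC1 (0.86), NIPSNAP3B (0.63), NMNAT3 (0.57) and MAP3K21 (0.88) followed the same order of unstimulated lowest. TRIM65, a ubiquitin ligase, had 1003, 1548, 1806, 1763 and 1101 (0.81), high with both leukotrienes and lipoxin A4 but not with lipoxin B4. CTSZ (chromosome 20), a lysosomal carboxypeptidase, had 2010, 2093, 4562, 3442 and 3392 (0.78). Its values were high with leukotriene C4 and both lipoxins, and its dim second probe set gave 0.13. BCLAF3 (0.86) and TMEM144 (0.57; other probe set 0.67) were highest with lipoxin A4 by 1.13-fold and 1.04-fold over lipoxin B4.

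Genes lower with lipoxin A4 were led by SLC11A1 (NRAMP1, chromosome 2), which pumps iron and manganese out of the phagosome of macrophages. Its brightest probe set had 347, 231, 298, 37.5 and 299, under the floor with lipoxin A4 only, so it was at least 7.13-fold lower than unstimulated and at least 4.75-fold lower than the nearest array. A second probe set had 136, 102, 169, 56.6 and 85.9 (-1.27). The third had 295, 242, 217, 197 and 34.0 (-0.59), where lipoxin B4 and not lipoxin A4 was the low array. All 3 were thus lower than unstimulated, the lowest array differed between them, and the mean of the probe sets gave -1.56. In the lists of phagosome and oxidase genes (18 measured) and of iron handling (15 measured), SLC11A1 was the lowest; the next was HAMP (79.7 unstimulated, 52.1 with lipoxin A4, -0.62), and the oxidase subunit CYBB (895 and 1116, 0.32) and the ferritin chain FTL (43797 and 41494, -0.08) were within 1.5-fold.

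Other bright genes were lowest on the lipoxin A4 array on their single measured probe set. ADAM33 (chromosome 20), a membrane metalloprotease studied in asthma, had 316, 331, 285, 109 and 219 (-1.54), 2.01-fold under lipoxin B4, the nearest array. ARID3B (chromosome 15), a DNA-binding protein, had 459, 395, 384, 209.8 and 329 (-1.13). AMZ1 (chromosome 7), a zinc metallopeptidase, had 298, 192, 237, 126 and 243 (-1.25). For these 3 genes the lipoxin A4 array was the lowest by at least 1.52-fold; ARID3B and AMZ1 also lay under their unstimulated values with the other compounds, by log2 differences of -0.22 to -0.64.

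INTS9 (chromosome 8), a subunit of the Integrator complex that cleaves nascent transcripts, was the brightest of the genes at least 1.5-fold below all other arrays. It had 996, 1034, 1039, 551 and 859 (-0.85). The phospholipid flippase ATP8B1 had 299.6, 270.0, 342, 173 and 369.8 (-0.79), and ZBTB48, a telomere-binding zinc finger protein, 622, 605, 670.3, 402 and 649 (-0.63). For all 3 the other compounds differed from unstimulated by -0.21 to 0.30 in log2. PCSK7, a proprotein convertase, had 302, 355, 621, 169 and 281 (-0.84). Its second probe set had 51.2 unstimulated and was under the floor with leukotriene C4 and both lipoxins, so its -0.07 is a bound.

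Dimmer genes, with a mean signal under 200, included ones of differentiation, cytokine signalling and arachidonic acid release. CNTFR (chromosome 9), the binding subunit of the ciliary neurotrophic factor receptor that signals with IL6ST (gp130), had 233, 155, 171, 71.2 and 178 (-1.71). CEBPE (chromosome 14), a transcription factor of late granulocyte maturation, had 240.4, 114, 151, 78.3 and 146 (-1.62). PLA2G4C (chromosome 19), a phospholipase A2 that can free arachidonic acid, had 206, 133, 153, 91.7 and 168 (-1.17). All 3 have 1 measured probe set, were lower on every stimulated array and lowest with lipoxin A4, by 2.17-fold, 1.46-fold and 1.45-fold. SPDEF, an ETS factor, had 234, 71.1, 181, 66.6 and 82.8 (-1.81); leukotriene B4 and lipoxin B4 were as low, and at least 1 of its other probe sets was at the floor on both arrays. At these signals the SD over genes was 0.51.

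In the lists that hold these genes, members at least 1.5-fold apart were few in number and near or somewhat above the share over all measured genes (3.29% higher, 6.78% lower). The lists were chosen with earlier results of these data known, so a share above that of all genes is no result about a list. Of 12 measured genes of gp130 signalling CNTFR was the only one 1.5-fold lower and none was higher; IL6ST had 392, 465, 481, 578 and 458 (0.56), highest with lipoxin A4, with its other probe sets between -0.16 and that value. Of 21 myeloid transcription factors, CEBPE and the dim IRF4 (77.0 and the floor, -0.66) were lower, none was higher and the median was 0.05, with CEBPA at -0.15, CEBPB at 0.00 and SPI1 at -0.28. Of 16 phospholipase genes PLA2G4C was lower and PLA2G7, the platelet-activating factor hydrolase, higher (90.1, 86.3, 58.5, 143 and 70.6, 0.67), while PLA2G4A, the main cytosolic phospholipase A2, had -0.02. Of 20 metalloproteases and inhibitors ADAM33, ADAM12 (at the floor on all stimulated arrays, -0.63) and MMP25 were lower; MMP25 (-1.33) turned to 0.95 after quantile normalization and had a probe set at 0.91.

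Some lower genes had every probe set at least 1.5-fold lower but were as low with other compounds. EML3 (chromosome 11), a microtubule-associated protein, had 1642, 801, 953, 766 and 496 (-1.10) and on a second probe set 1249, 819, 668, 738 and 682 (-0.76). ATXN2L (chromosome 16), a stress granule protein, had 975, 427, 368, 527 and 417 (-0.89), and SOX12 (chromosome 20) had 963, 315, 489, 597 and 449.7 (-0.69). On all 3 the unstimulated array was the high one, and lipoxin A4 was the nearest to it for ATXN2L and on the brighter probe set of SOX12. The dimmer probe set of SOX12 had 87.5, 74.1, 28.0, 26.5 and 50.5 (-0.85), under the floor with leukotriene C4 and lipoxin A4. PLXNA1, a semaphorin receptor, had 284, 314, 241, 159 and 145 (-0.84), with both lipoxins under both leukotrienes. TMEFF2 (-0.79, and -0.89 with lipoxin B4) and LOC100190986 (-0.71, and -1.05 with leukotriene C4) were also lower on every probe set. UBOX5, a U-box ubiquitin ligase, differed from these in being lowest with lipoxin A4 on both of its probe sets. It had 269, 188, 223, 173 and 188 (-0.64) on the brighter one and 223, 144, 155, 78.1 and 174 (-1.51) on the other, a mean of -1.08. With SLC11A1 and the higher genes NIPSNAP3B, PPP3R1 and HINT3, these made 11 of the 185 bright genes for which all of several probe sets were 1.5-fold apart; 74 of the 185 had a single probe set, and in 66 of the other 111 a probe set had the opposite sign.

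ANXA2P2 (chromosome 9), a processed pseudogene of annexin A2, had 5711, 2303, 2947, 1997 and 2158 (-1.52), the largest difference of a gene with mean signal over 500. ANXA2P3 had 217, 135, 273, 81.0 and 151 (-1.42). Their parent ANXA2, a phospholipid-binding protein, had 13763, 14566, 15920, 13983 and 13164 (0.02), with 4 probe sets between 0.00 and 0.05, and ANXA1, whose fragments also bind FPR2, had 2408 and 2425 (0.01). The copies are nearly identical in sequence, so the pseudogene values are uncertain. HLA-DRB6, also a pseudogene, had 386, 206, 272, 142 and 197 (-1.45). CPXM1 (-1.20), ZNF385A (-1.17) and TMEM234 (-1.09) were lower too, and ZNF385A was lowest with lipoxin B4 (183). The second probe set of TMEM234 had 48.9 unstimulated and was under the floor with lipoxin A4, so its -0.01 is a bound.

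Smaller differences were shared by both probe sets of some bright genes, and CSF3R and HBEGF were chosen after their values were seen. CSF3R, the receptor of granulocyte colony-stimulating factor, had 1040, 1000.2, 863, 762 and 1001 (-0.45; second probe set -0.40). HBEGF, a growth factor shed from the cell surface, had 1194, 1171, 1220, 1043 and 1168 (-0.20; second probe set -0.28). Lipoxin A4 was the lowest array on both probe sets of each. FZD2, a Wnt receptor (-0.21 and -0.74), CSPG4 (-0.48 and -0.50), NDOR1 (-0.58 and -0.32), SNAPC4 (-0.22 and -0.64), ZNF335 (-0.25 and -0.46) and TTLL5 (-0.27 and -0.52) were likewise lowest on both. The smallest gap over the probe sets to the next array was 1.11-fold to 1.17-fold for these 8 genes.

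The genes through which lipoxin A4 acts were unevenly detected. FPR2 was under the floor with lipoxin A4, at it within rounding unstimulated (48.7), and reached at most 54.5 on the others, and FPR1, the formyl peptide receptor, had 70.9, 48.7, 52.7, 56.9 and 74.9 (-0.32). AHR had 671, 833, 911, 742 and 870 (0.14), the smallest difference of the 4 compounds. CYSLTR1, a cysteinyl leukotriene receptor, had 1044 and 1167 (0.16), GPR18, a receptor of the related resolvins, 2980 and 2813 (-0.08), and CMKLR1, another receptor of resolvins, 90.7 and 79.3 (-0.19). Of 13 receptors 10 were measured, OXER1, which binds oxidised eicosanoids, was at least 1.5-fold higher (186, 316, 328, 326 and 326, 0.81) and ESR1 lower (100.4 and the floor, -1.04); over all measured genes 3.29% were higher and 6.78% lower at this fold. OXER1 and the leukotriene B4 receptor LTB4R (906, 687, 702, 689 and 651, -0.39; other probe sets up to 0.13) had near-equal values on the 4 stimulated arrays.

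Of 19 enzymes that make or break down lipoxins and leukotrienes 13 were measured and none was 1.5-fold apart. Over all measured genes 10.1% were, and over bright genes 2.04%, so a count of none was near the background. HPGD had 1113, 901, 1123, 1347 and 1268 (0.28), and its 4 probe sets gave 0.19 to 0.62. Lipoxin A4 was not the highest array on 3 of the 4, since HPGD had 739 with lipoxin A4 and 761 with leukotriene C4 on the second, 683 and 845 (lipoxin B4) on the third and 217 and 263 (leukotriene B4) on the fourth. PTGR1, which reduces lipoxin intermediates, had 2556 and 2676 (0.07), ALOX5AP, the partner of 5-lipoxygenase, 34336 and 34442 (0.00), LTA4H 3683 and 3940 (0.10), and ALOX5 143 and 119 (-0.27). ALOX15, a lipoxygenase of lipoxin synthesis, was not measured.

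In the AHR pathway 10 of 12 measured genes were above 0 and 2 below, with a median of 0.18. Its medians were 0.20, 0.23 and 0.16 with leukotriene B4, leukotriene C4 and lipoxin B4. Over all 15374 measured genes, 7412 were above 0 with lipoxin A4 and 6689 below, with a median of 0.00. Over the 9086 bright genes, 5441 were above 0 and 3645 below, with a median of 0.04. TIPARP, an AHR-induced ribosyltransferase, had 757, 915, 902, 925 and 870 (0.29), CYP1B1 had 925 and 1053 (0.19; its probe sets ranged from -0.30) and ARNT, the partner of AHR, 880.5 and 1104 (0.33). CYP1A2 was 1.5-fold higher on its brighter probe set (109.9 and 189, 0.78), but the other gave -1.24 and the mean of both -0.23. Lipoxin A4 was the highest array for CYP1A2 by 1.03-fold, and for TIPARP it had 925 against 915 with leukotriene B4.

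Of 26 measured NF-kappaB and inflammatory genes none was 1.5-fold higher and 3 were lower (11.5% of the list, against 10.1% of all measured genes either way), a share near the background. The 3 were dim: TRAF1 (129.5 and 68.1, -0.93), CXCL2 (114 and 66.7, -0.77) and CD80 (119 and 77.2, -0.63). TNF had 559, 639, 443, 553 and 583 (-0.02), IL1B 1020 and 1059 (0.05) and CCL2 769 and 777 (0.02), whereas CCL2 had 1805 with leukotriene C4. CXCL8, the neutrophil chemoattractant, had 896, 896, 1123, 701 and 605 (-0.35; second probe set 0.01), and NFKBIE, an inhibitor of NF-kappaB, 466 and 633 (0.44). Of 20 measured genes of signalling feedback none was 1.5-fold apart, with ZFP36, which destabilises cytokine mRNA, at 2838 and 2136 (-0.41) and SOCS3 at 0.18. Of these 20 genes 16 were bright, and 2.04% of bright genes were 1.5-fold apart, so a count of none was near the background. Of 21 immediate early genes NR4A1 (at least 2.25-fold higher, 109 against the floor, with 106 on the lipoxin B4 array and a probe set of -0.28) and FOSB (73.1 against the floor) were higher. They made 9.52% of the list, against 3.29% higher and 10.1% either way over all measured genes.

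Of 17 measured genes of resolution and clearance AXL alone was 1.5-fold higher (74.4 against the floor). It made 5.88% of the list, against 3.29% higher and 10.1% either way over all measured genes. Members within 1.5-fold included NR1H3 (0.41), STAB1, a scavenger receptor (0.52, at 123 against 86.0), and the complement gene C1QB (-0.46). MERTK had 0.18, TGFB1 -0.14 and ANXA1 0.01. In the granule list 12 of 17 genes were below 0 (median -0.07), with ELANE at 45206 and 41931 (-0.11) and CST3 at 9535 and 7781 (-0.29). CTSZ was the only one of the list 1.5-fold apart (5.88%, against 2.04% of bright genes). All 17 granule genes and all 19 measured ribosomal protein genes were bright, and 3645 of 9086 bright genes were below 0. Interferon-stimulated genes had 1 higher (MX1, 0.83) and 2 lower (OAS3, -0.70, and OAS2, -0.59) of 19, all under a signal of 200, against 3.29% higher and 6.78% lower over all measured genes. Ribosomal protein genes were slightly lower as a group, 18 of 19 below 0 with a median of -0.09, and at 0.00 after quantile normalization; the same median was -0.38 with lipoxin B4 and 0.14 with leukotriene C4. None of the NRF2 target (12 measured), sterol and fatty acid (13), cell cycle (24), respiratory chain (17) and p53 or apoptosis (17) genes was 1.5-fold apart, and their medians lay between -0.02 and 0.03, so near 0 that their sign turned with scaling in most. Over all bright genes 2.04% were 1.5-fold apart, so these counts of none were near the background.

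**Figure D4:**
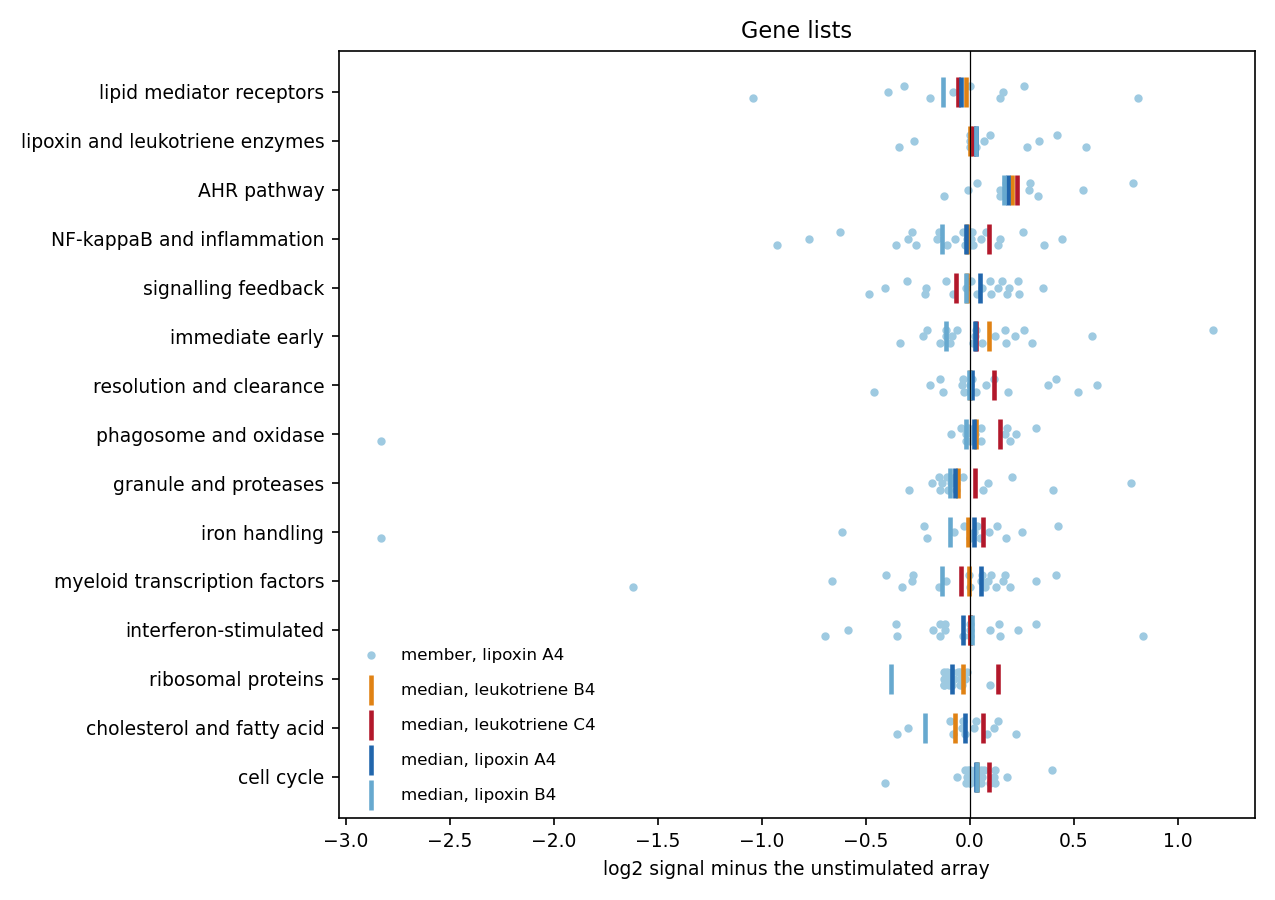
Log2 difference of lipoxin A4 minus unstimulated for each measured member of 15 gene lists (points), with the list median for each compound (vertical bars). Medians of lipoxin A4 lie between -0.09 and 0.18, and single members such as SLC11A1 and CEBPE lie far from their lists.

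Promoter sequence was examined for the motif of AHR with ARNT, GCGTG, on either strand (GCGTG or CACGC) in the 250 bases upstream of each start site given by RefSeq (GRCh38.p14). It was present in 31.9% of all 27305 promoters and 47.7% of those of bright genes. Of 24 named higher genes 17 had an entry, and 5 of these had the motif (29.4%). Of 22 named lower genes 13 had an entry, and 3 of these had the motif (23.1%). The comparison over named genes is void, since entries were missing and few genes are left. The promoters of 3 genes that were highest with lipoxin A4 and of SLC11A1 are shown because the results above turn on these genes, with matches in capitals, each 5' to 3' on the gene's strand: KLHL36 at chr16:84648261-84648510 (plus strand, no match), FAM98B at chr15:38453877-38454126 (plus, 1 match starting at -143), PPP3R1 at chr2:68252533-68252782 (minus, 1 at -202) and SLC11A1 at chr2:218382023-218382272 (plus, 1 at -12). A match is a description of letters and not of binding.
KLHL36: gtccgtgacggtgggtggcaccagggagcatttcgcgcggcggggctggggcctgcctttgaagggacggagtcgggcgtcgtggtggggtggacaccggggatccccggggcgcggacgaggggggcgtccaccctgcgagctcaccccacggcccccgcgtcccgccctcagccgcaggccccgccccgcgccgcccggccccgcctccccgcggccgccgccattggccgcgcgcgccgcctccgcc
FAM98B: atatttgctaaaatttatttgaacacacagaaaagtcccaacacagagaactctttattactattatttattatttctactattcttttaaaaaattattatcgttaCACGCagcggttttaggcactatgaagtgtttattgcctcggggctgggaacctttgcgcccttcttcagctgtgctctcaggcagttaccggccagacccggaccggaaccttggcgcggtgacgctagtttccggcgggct
PPP3R1: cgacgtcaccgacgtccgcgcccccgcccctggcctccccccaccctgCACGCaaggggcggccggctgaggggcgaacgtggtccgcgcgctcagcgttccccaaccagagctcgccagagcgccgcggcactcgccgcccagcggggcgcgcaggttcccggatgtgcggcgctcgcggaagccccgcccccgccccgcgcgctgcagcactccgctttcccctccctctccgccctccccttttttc
SLC11A1: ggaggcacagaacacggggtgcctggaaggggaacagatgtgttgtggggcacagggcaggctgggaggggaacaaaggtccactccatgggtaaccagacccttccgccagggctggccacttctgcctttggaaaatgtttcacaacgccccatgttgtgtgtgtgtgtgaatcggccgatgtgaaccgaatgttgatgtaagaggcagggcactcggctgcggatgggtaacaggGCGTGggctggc

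Set directly against the other compounds, lipoxin A4 had the fewest bright genes apart from lipoxin B4, its positional isomer with the hydroxyl groups placed differently. At the same dose and time, of 9086 bright genes 11 were at least 2-fold and 145 at least 1.5-fold apart between the lipoxins. Between lipoxin A4 and leukotriene B4 the counts were 20 and 158, and between lipoxin A4 and leukotriene C4 22 and 198. Leukotriene B4 and lipoxin B4 were about as close as the lipoxins, with 12 and 154. Over all 15374 measured genes the lipoxins had 207 and 1093, and leukotriene B4 and lipoxin B4 199 and 1103. By the SD of log2 differences the order depended on signal. Among the 3129 genes above 2000 it was 0.13 between lipoxin A4 and leukotriene B4, 0.15 with leukotriene C4 and 0.16 with lipoxin B4, and from 200 to 500 it was 0.31, 0.33 and 0.29. No interval can be given for these values without replicates. HINT3, PPP3R1, CTSZ and PLXNA1 had similar values with both lipoxins, and KLHL36, DPP4, TRIM65, INTS9 and ADAM33 did not.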

How the data were processed

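Total RNA of 5 MonoMac6 cultures was hybridised to 1 Affymetrix array each; groups were taken from the titles. The authors deposited linear intensity values (signals) made with GCOS version 1.4, as the submitters' processing notes name it. The sources used here do not give how GCOS computed and scaled them, and detection calls were not used. Of 54675 probe sets, 41097 carried 1 symbol in the platform annotation, 1801 several and 11777 none listed; 41043 matched the RefSeq gene table (GRCh38.p14). Values were taken to log2 and each array was shifted to an equal median over the upper 50% of probe sets. A floor was set at the 50th percentile of mean signal (48.7) and lower values raised to it; a difference from the floor is a bound. A gene is given by its probe set of highest mean log2 value. With 1 array per condition no test was possible, and a difference of 2-fold, or 1.5-fold among bright genes, was counted instead.

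Named genes were up to 12 each way with the largest difference among bright genes above the floor on both arrays with no opposed probe set, up to 8 each way farthest outside the other arrays, up to 6 each way by the weakest of several probe sets, the receptor and enzyme lists, up to 4 members 1.5-fold apart of each other list, and 5 genes that earlier results had named. Members, lists and the rule were chosen with earlier results of these data known. PROM2, ZNF839, TMEFF2, IL6ST, CSF3R, HBEGF, the genes at the thresholds and list members within 1.5-fold were named after their values were seen, and the count over every probe set was added then. The counting was tested on simulated data. Alternatives were the deposited scale, quantile normalization, floors at the 30th and 70th percentile, the mean of probe sets, a bright limit of 500 and leaving out the leukotriene C4 array. Python 3.11.15, numpy 2.4.6, pandas 2.3.3 and matplotlib 3.10.9 were used.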

Additional observations from a re-analysis of the deposited data

Results flagged for a closer look

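The middle control probe set of 18S rRNA, which enters no comparison, was 1.96-fold higher on the lipoxin A4 array than on the unstimulated one; the folds were 4.90 with leukotriene B4, 16.5 with leukotriene C4 and 5.66 with lipoxin B4, so lipoxin A4 had the smallest. Probe sets with a mean signal of at least 200 and no listed gene numbered 1043. With lipoxin A4, 16 of them were at least 1.5-fold higher and 31 lower. None stood 1.5-fold above all other arrays and 3 stood below. Of the 9086 bright genes, 84 were higher (0.924%), 101 lower (1.11%), 2 above (0.022%) and 9 below (0.0991%).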

How the results depend on the processing

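No paired analysis was possible because each condition has 1 array. Over 7 alternatives, counts were within 1.5 times the reported ones in 23 of 36 values. With a floor at the 30th percentile, 919 genes were 2-fold higher and 1505 lower, in place of 111 and 265, among 18689 measured genes; the cause was not tested. With a floor at the 70th percentile (a signal of 244) these were 4 and 5, the bright genes 1.5-fold apart were 47 higher and 63 lower, and 2 stood 1.5-fold below all other arrays. With the mean of all probe sets, 48 bright genes were 1.5-fold higher and 0 stood above all others. With bright genes from 500, 7097 genes in place of 9086, 25 were higher, 25 lower, 0 above and 2 below all others. The cause of these lower counts was not tested. For named genes, 427 of 478 values moved by less than the spread between arrays at their signal, 49 by more and 2 reversed. MMP25 went to 0.95 with quantile normalization, and its dimmer probe set had 0.91 without it. The cause for MMP25 was not tested. CYP1A2 went to -0.23 with the mean of probe sets, which averages its values of 0.78 and -1.24. Leaving out the leukotriene C4 array kept the 2 and 9 genes outside. It had to, since a gene outside all other arrays is also outside any part of them. Of the 376 genes 2-fold apart, 355 had a mean signal under 200. The SD over genes was 0.47 under a signal of 100, 0.51 from 100 to 200 and 0.33 from 200 to 500. The cause of this was not tested.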

Other observations

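Some of the largest differences lay in genes with a mean signal under 200, and those given here were chosen after their values were seen. PYGB, the brain form of glycogen phosphorylase with a mean signal of 199, was at the floor unstimulated and had 261, 275, 371 and 241 with leukotriene B4, leukotriene C4, lipoxin A4 and lipoxin B4, at least 7.63-fold higher with lipoxin A4; its other probe set gave -0.28. DEFB124, a beta-defensin gene, was at the floor unstimulated and with leukotriene B4 and had 219, 265 and 81.0 on the other arrays. HOXB5, a homeobox transcription factor, had 259 unstimulated and 149 to 194 with the other compounds but was at the floor with lipoxin A4, at least 5.33-fold lower, with its second probe set at -0.17. LINC01875 had 262 unstimulated, 140 to 218 with the other compounds and the floor with lipoxin A4, at least 5.38-fold lower.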
